A study of Homo sapiens with 6 samples.

Results

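The nuclear genes for mitochondrial protein import were examined in genome-wide lists of N-Myc and JMJD6 binding in the human neuroblastoma line CHP-134. The 33 genes were chosen by name from knowledge of the pathway, with earlier results of these data known. They were looked up by symbol in the lists of bound promoters, typical enhancers and super-enhancers, out of 19222 autosomal protein-coding genes in the annotation. Chromatin immunoprecipitation with sequencing (ChIP-seq) was carried out with an antibody against N-Myc in 3 replicates and an antibody against JMJD6 in 3 replicates. N-Myc, the product of MYCN, is a transcription factor of the MYC family, and JMJD6 belongs to the jumonji domain proteins, with reported activity on histone arginines. N-Myc samples were cross-linked with formaldehyde alone, whereas JMJD6 samples received disuccinimidyl glutarate before formaldehyde, so a difference between the lists by protein and one by cross-linking cannot be told apart. All 6 samples came from 1 cell line with no treatment named in the labels. The lists hold positions of peaks found in all 3 replicates, with no height, score or read count, so neither the depth behind a peak nor the spread between replicates is known. A gene is called listed below when a bound region carries its name, and intervals are exact binomial 95% confidence intervals (Clopper-Pearson) that cover counting error over genes only.

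Most mitochondrial proteins are encoded in the nucleus, made in the cytosol and imported through translocases. The TOM complex of the outer membrane is the common entry gate, small TIM chaperones and TIM22 serve carrier proteins, the TIM23 complex and its HSP70 motor take up proteins with a presequence, and further machines fold, sort and cleave the newcomers. MYC family proteins form dimers with MAX and bind E-boxes, of which CACGTG is the canonical form, and they are known to raise the expression of many genes for mitochondrial function.

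The N-Myc list named the promoters of 20 of the 33 import genes, or 60.6% (95% CI 42.1 to 77.1%), beside 18.3% of all autosomal protein-coding genes matched by their annotated and older symbols and 17.8% matched by the annotated symbol alone. A promoter was the region within 1 kb of a RefSeq start site. A canonical E-box lay in the promoter peak of 11 of the 20 genes. The windows of the 10 genes whose motif lay nearest to the peak centre are shown in that order, since they place the motif that N-Myc is known to bind inside the measured peaks. Each is 30 bases of the GRCh37 reference, written 5′ to 3′ on the strand of the gene, with the CACGTG in capitals.
CHCHD4 (chr3:14165766-14165795, minus strand): cctgccatacccCACGTGtttacattttgc
TIMM8B (chr11:111957015-111957044, minus strand): ctccttgcaggcCACGTGcccgtagaaaag
MTX1 (chr1:155178656-155178685, plus strand): agcagtacaggcCACGTGcagtttggcaag
TOMM34 (chr20:43589366-43589395, minus strand): taaaatagcccaCACGTGgtcactttccat
TOMM20 (chr1:235292303-235292332, minus strand): aaagtccgtggtCACGTGcaaattcccgac
PMPCA (chr9:139304477-139304506, plus strand): gcggaggtgccaCACGTGgcgcgggaactg
TIMM44 (chr19:8008898-8008927, minus strand): ggtcggtggatcCACGTGcctgtaccacct
TIMM10 (chr11:57298211-57298240, minus strand): ccggaagtaaccCACGTGcttccgctggag
TOMM5 (chr9:37592201-37592230, minus strand): ggcactgaagtgCACGTGgtggccggcgcg
TIMM9 (chr14:58893880-58893909, minus strand): cattactgctccCACGTGttctttcccatc

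The distance from motif to peak centre was 20.5 bp in CHCHD4, 25 bp in TIMM8B and 41.5 bp in MTX1. It was 70.5 bp in TOMM34, 71 bp in TOMM20, 84 bp in PMPCA, 91.5 bp in TIMM44 and 99 bp in TIMM10. In TOMM5 and TIMM9 the motif lay farther out, at 130.5 and 215 bp, and in HSPA9, which is not printed, at 272 bp. No import gene peak held more than 1 CACGTG. A C before the motif or a G after it, a flank that MYC and MAX dimers are known to favour, was present at 10 of the 11 sites (90.9%) and at 65.4% of the 1583 sites in all N-Myc promoter peaks. This difference rests on 11 sites and was not tested. TOMM20 was the site without this flank. Within 100 bp of the peak centre, 7 of 20 genes (35%, 95% CI 15.4 to 59.2%) had a whole CACGTG, beside 23% of all promoter peaks.

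Per gene, 11 of 20 import genes had the canonical E-box in a peak, or 55% (95% CI 31.5 to 76.9%), beside 36.9% of the 3549 N-Myc peaks at promoters, and the lower end of the interval lay below that background. The E-box shares, also those within 100 bp of the centre, count genes for the import set and peaks for the background. Another E-box form, CACGCG or CATGTG on either strand, was present in the peaks of 10 of 20 genes (50%) and in 45.5% of all promoter peaks. Counting all 3 forms, of which no stretch of 6 bases matches more than 1, 16 of 20 genes (80%, 95% CI 56.3 to 94.3%) and 67.3% of all promoter peaks had a match. Among the 9 genes without the canonical form, 5 had another form in the peak, namely TOMM6, TIMM13, TIMM22, TIMM21 and GRPEL2. The peaks of TOMM40, TOMM40L, PMPCB and PHB2 held none of the 3 forms.

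In the entry gate of the outer membrane, 6 of 9 genes had a listed promoter under the symbols looked up. TOMM20 encodes a receptor for presequences. Its N-Myc peak was 324 bp wide, at chr1:235292227-235292550, between genes, with its centre 132.5 bp upstream of the start site. TOMM34 encodes a cytosolic cochaperone of import, and its 415 bp peak at chr20:43589103-43589517 was centred 196 bp upstream. TOMM40 encodes the pore through which precursors cross the outer membrane. Its peak at chr19:45393559-45393915 was centred 739 bp upstream of the listed start site and did not reach that site. By this measure it was the most distant upstream peak of the group. The annotated TOMM40 gene begins at chr19:45393826, inside this peak. TOMM40L encodes a relative of that pore protein, and its peak at chr1:161195548-161196027 covered the start site with its centre in the untranslated region of TOMM40L.

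TOMM5 and TOMM6 encode small subunits of the complex. The TOMM5 peak, at chr9:37591805-37592887 with its centre in a coding exon of TOMM5, was 1083 bp wide. This was the widest of the 22 import gene peaks, at percentile 97.3 of all N-Myc promoter peaks by width. The TOMM6 peak at chr6:41754771-41755629 was 859 bp wide, at percentile 92.3, and was centred 20 bp from the start site. TOMM22, a receptor and organizer of the complex, was in no N-Myc list, and its nearest N-Myc peak lay 25.4 kb upstream. TOMM7, another small subunit, had a listed enhancer 29478 bp upstream and no listed promoter.

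TOMM70A, a receptor for carrier proteins, was not among the promoters under that symbol, but its newer symbol TOMM70 was. The promoter list used TOMM70, and the enhancer list used TOMM70A. The TOMM70 peak at chr3:100119853-100120687 was 835 bp wide, covered the start site with a centre 28 bp upstream, and held no CACGTG and 1 other E-box form. With this promoter, and so with older and newer symbols matched as in the 18.3% of all genes, the count was 21 of 33 (63.6%, 95% CI 45.1 to 79.6%). The counts given here keep to the symbols looked up, so TOMM70A stands among the 13 genes without a listed promoter.

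Small TIM chaperones carry hydrophobic precursors across the intermembrane space, and all 5 genes of this group had a listed promoter (95% CI 47.8 to 100%). TIMM9 and TIMM10 encode the partners of one hexamer. The TIMM9 peak at chr14:58893688-58894531 was 844 bp wide and covered the start site, and the TIMM10 peak at chr11:57298117-57298532 was 416 bp wide with its E-box 6.5 bp downstream of the start. TIMM13 and the TIMM8 proteins form another chaperone complex. Neither the TIMM8B nor the TIMM13 peak covered a listed start site, since the TIMM8B peak at chr11:111956879-111957230 was centred 467.5 bp downstream in an intron and the TIMM13 peak at chr19:2426748-2427074 was centred 1003 bp downstream in the untranslated region. TIMM22 encodes the channel that inserts carriers into the inner membrane, and its peak at chr17:899653-900449 was 797 bp wide and covered the start site.

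The disulfide relay oxidizes small proteins that stay in the intermembrane space. CHCHD4, the oxidoreductase of the relay, had 2 N-Myc peaks in its promoter. The peak at chr3:14165538-14165982 was 445 bp wide, lay in an intron of CHCHD4 and held the E-box. The other, at chr3:14166406-14166629, was 224 bp wide and the narrowest of the group, at percentile 1.24 of all promoter peaks. GFER, which reoxidizes CHCHD4, was in no N-Myc list, with its nearest N-Myc peak 19.6 kb downstream.

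In the presequence route, 2 of 5 genes had a listed promoter. TIMM21, which links the inner membrane translocase to the outer membrane and to respiratory chain assembly, had 2 N-Myc peaks, at chr18:71814998-71815532 and chr18:71815628-71816002. TIMM44, which tethers the motor to the channel, had an 839 bp peak at chr19:8008585-8009423 with its centre 296 bp upstream. TIMM17A and TIMM23, the core of the channel, were in no N-Myc list. The nearest N-Myc peak was 29.1 kb upstream of TIMM17A and 204 kb upstream of TIMM23. TIMM50, the receptor of the channel, was named for an enhancer 18288 bp from its start site that lay 268 bp from DLL3. Within 1 kb of the TIMM23 start, 224 of 1927 words of 75 bases (11.6%) occurred once in the reference, and the part of this in the missing promoter was not tested. In the other 32 genes at least 92.6% of words were unique, and the peaks themselves were unique throughout.

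The motor pulls precursors into the matrix. HSPA9 encodes the mitochondrial HSP70 at its centre, and its N-Myc peak at chr5:137910971-137911786 was 816 bp wide and covered the start site. GRPEL2, a nucleotide exchange factor for HSPA9, had a 407 bp peak at chr5:148724781-148725187 centred 8 bp from the start site, the closest of the group. The gene of the other exchange factor, GRPEL1, was in no N-Myc list, and its nearest peak lay 2.68 kb upstream. DNAJC15 and DNAJC19, which encode J-domain partners of the motor, had listed enhancers and no listed promoter. Their nearest N-Myc peaks were 105 kb and 249632 bp away.

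Among the sorting genes of the outer membrane, MTX1 had a 245 bp peak at chr1:155178507-155178751, in a coding exon of MTX1 and an intron of THBS3, at percentile 3.49 of width. SAMM50, which encodes the barrel that inserts other barrel proteins, had its nearest N-Myc peak 1065 bp upstream of the start site, just beyond the promoter limit, inside an enhancer listed for it. The nearest N-Myc peak of MTX2, the partner of MTX1, lay 176 kb upstream. In the maturation group, PMPCA and PMPCB encode the subunits of the peptidase that removes presequences, and both promoters were listed. The PMPCA peak at chr9:139304132-139304683 was centred 616.5 bp upstream, in a coding exon of ENTR1. The PMPCB peak at chr7:102937618-102937963 covered the start site. PHB2, a prohibitin of the inner membrane, had a 518 bp peak at chr12:7079754-7080271 that covered the start site, whereas OXA1L, the insertase for proteins made in the matrix, had only an enhancer 45079 bp upstream.

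**Figure D1:**
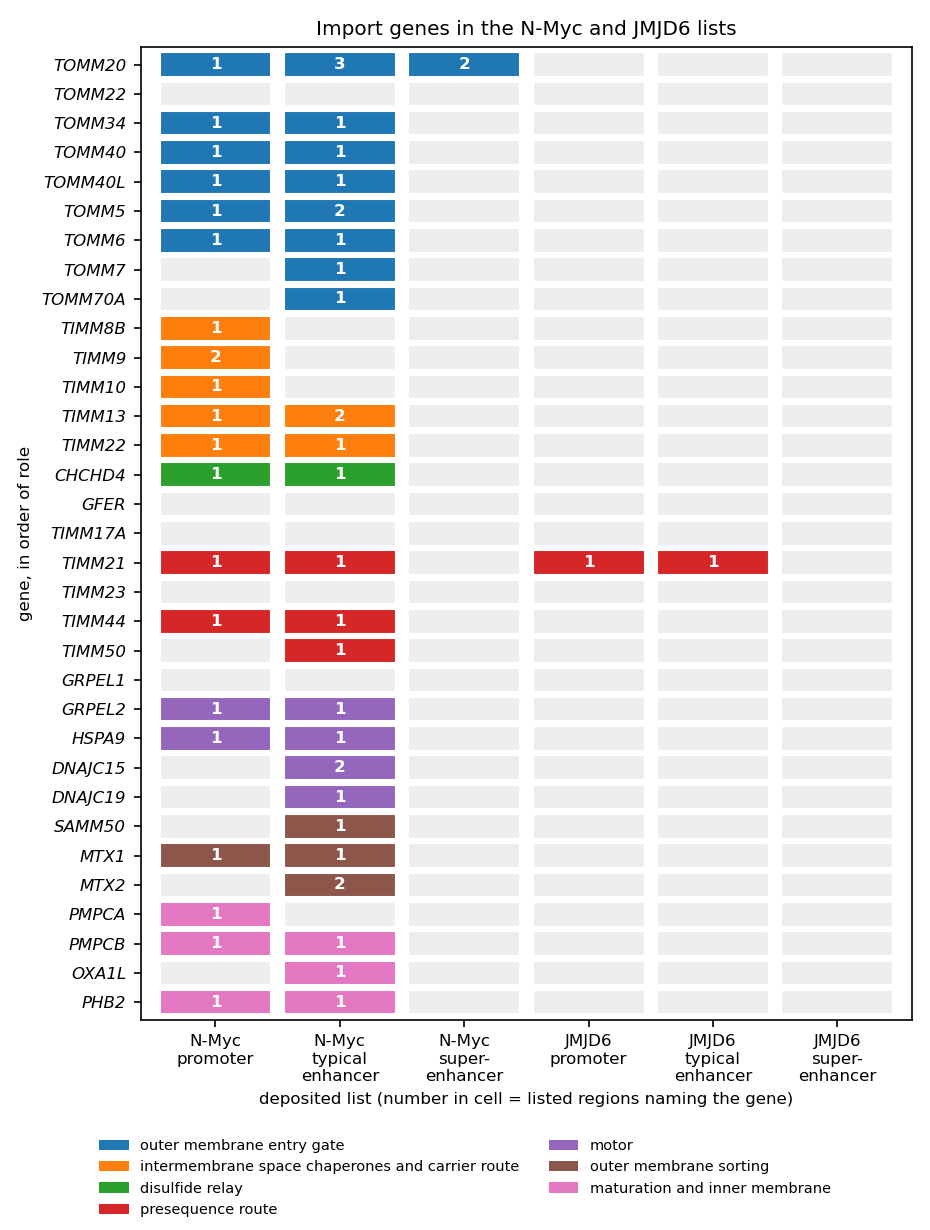
Number of listed regions that name each of the 33 import genes (rows, coloured by role) in the N-Myc and JMJD6 lists of promoters, typical enhancers and super-enhancers (columns), with grey cells for none. N-Myc promoters are filled for 20 genes, N-Myc typical enhancers for 24, and JMJD6 columns for TIMM21 alone.

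The roles differed in their counts, from 5 of 5 chaperone and carrier genes and 3 of 4 maturation genes to 2 of 5 in both the presequence route and the motor and 1 of 3 sorting genes, but the groups were small and their intervals overlapped. The interval of the motor and of the presequence route ran from 5.27 to 85.3%. Other mitochondrial genes were also listed more often than the 18.3% of all genes, with 36 of 78 mitochondrial ribosomal protein genes (46.2%, 95% CI 34.8 to 57.8%) and 17 of 36 complex I genes (47.2%, 95% CI 30.4 to 64.5%). These intervals overlapped that of the import genes, and the differences between the groups were not tested. Of 33 other genes of import, folding and quality control, 30 were autosomal and 13 of these had a listed promoter (43.3%, 95% CI 25.5 to 62.6%). They were the chaperonin genes HSPD1 and HSPE1, the cochaperone genes DNAJA3 and DNLZ, the protease genes LONP1, CLPP, AFG3L2, IMMP2L and XPNPEP3, the disaggregase gene CLPB, the cristae genes CHCHD3 and IMMT, and PHB, the partner of PHB2. No promoter was listed for TIMM10B, TIMM23B, TIMM29, TIMMDC1, TOMM20L, PAM16, ROMO1, AGK, MTX3 or DNAJC11. The same held for MIPEP, IMMP1L, YME1L1, SPG7, HTRA2, MAIP1 and OMA1. Every autosomal gene of this set with a TIMM or TOMM symbol was therefore without a listed promoter. No promoter on chromosome X or Y was in the N-Myc list, so the 3 X-linked genes TIMM8A, TIMM17B and AIFM1 were left out of the 43.3%.

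**Figure D2:**
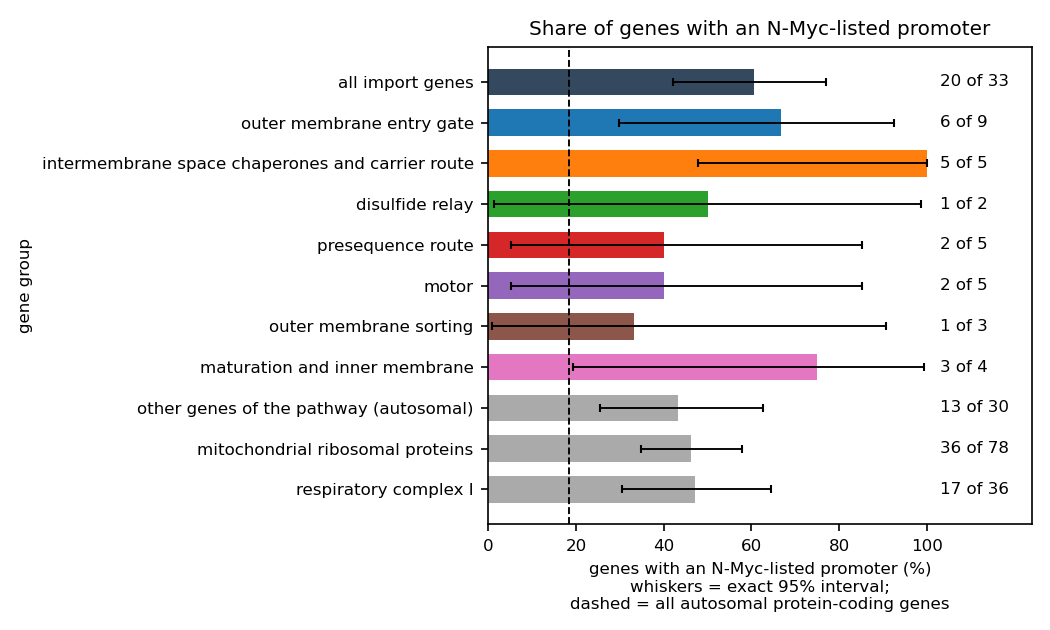
Percentage of genes with an N-Myc-listed promoter (horizontal axis) in each group of genes, with exact 95% intervals as whiskers, counts at the right and the 18.3% of all autosomal protein-coding genes as a dashed line. All import genes together stand at 60.6%, and the intervals of the small role groups are wide.

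The median width of the import gene peaks was 430.5 bp (95% CI 352 to 797 bp, range 224 to 1083 bp, 22 peaks) beside 452 bp over all 3549 N-Myc promoter peaks. The widths fell into 16 peaks from 224 to 552 bp and 6 peaks from 797 to 1083 bp. The 6 wide peaks belonged to TOMM5, TOMM6, TIMM9, TIMM44, HSPA9 and TIMM22. The median width of all common N-Myc peaks, at promoters or elsewhere, was 418 bp. Promoters with a peak at least that wide were found in 11 of 33 import genes (33.3%, 95% CI 18 to 51.8%), beside 10.9% of all genes. Width is the only measure of size in the lists and is not a peak score.

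Promoters were listed only when a peak overlapped the region within 1 kb of the start site. Closeness of these peaks to start sites therefore follows from that rule. For the nearest peak of each gene, the median distance from peak centre to listed start site was 136.2 bp (95% CI 81 to 290 bp, 20 genes). Over all promoter peaks, with every peak counted, the median was 184.5 bp. These medians are not like for like. Only the import genes were reduced to their nearest peak, and over all promoter peaks the nearest listed start site of any gene was used. The centre of that nearest peak was within 500 bp of the start in 17 of 20 genes, upstream in 12 and downstream in 8. The listed start site of the import gene itself lay under 14 of 22 peaks (63.6%, 95% CI 40.7 to 82.8%), beside 56.7% of all promoter peaks. In that background a listed start site of any gene counted, so these shares are not like for like either. The 8 peaks beside the listed start were those of TOMM40, TIMM8B, TIMM13, MTX1, PMPCA, both of CHCHD4, and the upstream peak of TIMM21. Median GC content was 56.6% in the import gene peaks and 58.3% in all promoter peaks, and the ratio of observed to expected CpG was 0.783 and 0.729.

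**Figure D3:**
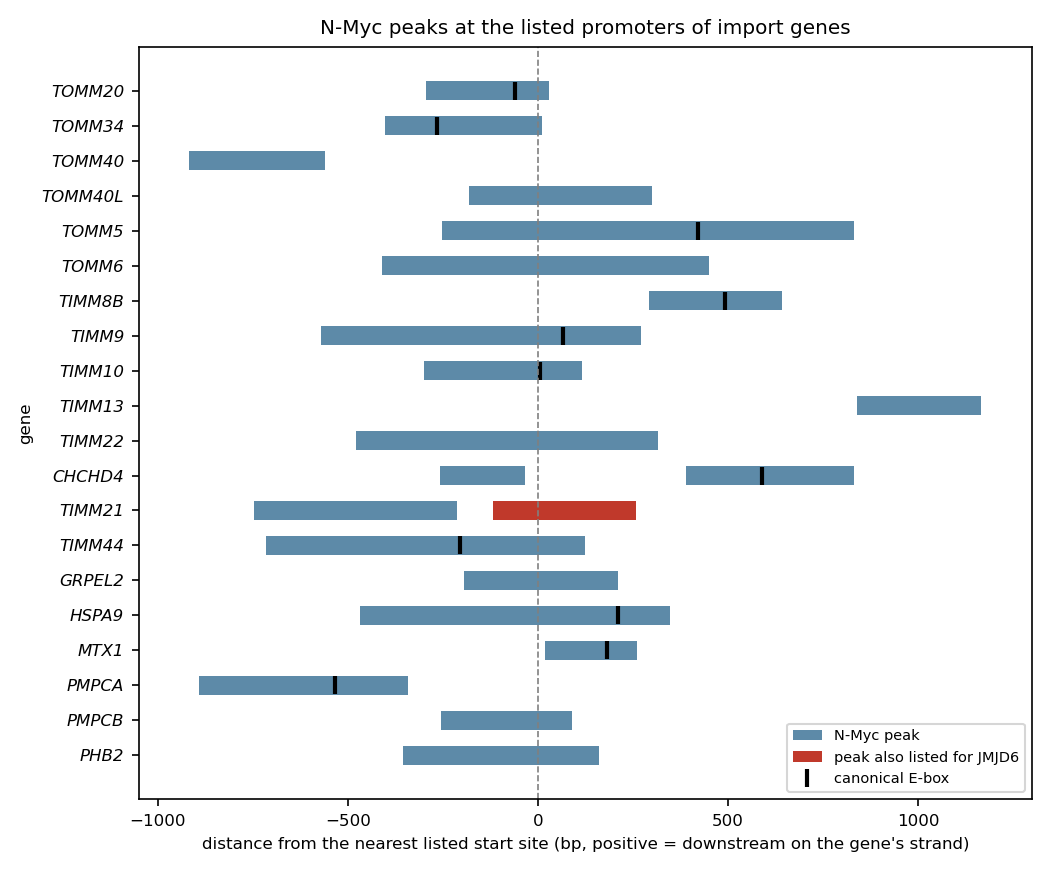
Extent of each N-Myc peak (bars) relative to the nearest listed start site (dashed line, bp, positive downstream) at the 20 import genes with a listed promoter, with canonical E-boxes as black ticks and the peak also listed for JMJD6 in red. Bars cross the start site in 14 of 22 cases, and ticks are present in 11 genes.

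Several of these peaks also covered the listed promoter of a neighbour. This was the case in 8 of 20 import genes (40%, 95% CI 19.1 to 63.9%), beside 24.2% of all promoter peaks, and in 7 of the 8 the neighbour was on the other strand. The first share counts genes and the background counts peaks. TIMM8B shared its peak with SDHD, a subunit of succinate dehydrogenase. CHCHD4 shared both of its peaks with TMEM43, TIMM9 with KIAA0586, PHB2 with EMG1, a ribosomal RNA methyltransferase, and TIMM21 both peaks with FBXO15. MTX1 shared with THBS3, and PMPCA with ENTR1, which the list names SDCCAG3. TOMM40L shared its peak with the microRNA gene MIR5187 on the same strand. At these promoters, binding at the import gene and binding at its neighbour cannot be told apart.

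In the 2 kb around the annotated start sites, a canonical E-box was found in 14 of 20 listed import genes (70%, 95% CI 45.7 to 88.1%) and in 5 of the 13 without a listed promoter (38.5%, 95% CI 13.9 to 68.4%). Over all autosomal protein-coding genes the shares were 47.0% of 3525 listed and 25.2% of 15697 others. The 5 unlisted genes with the motif were TIMM23, TIMM50, GRPEL1, DNAJC15 and OXA1L. TIMM50 and OXA1L held 2 copies each.

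Typical enhancers were named for 24 of 33 import genes (72.7%, 95% CI 54.5 to 86.7%), beside 32.7% of all genes. These are regions with H3K27ac, a histone mark of active chromatin, joined across short gaps and assigned by the authors to the 2 nearest genes. Both an N-Myc promoter and an enhancer were listed for 16 genes, an enhancer alone for 8, a promoter alone for 4 (TIMM8B, TIMM9, TIMM10 and PMPCA) and neither for 5 (TOMM22, GFER, TIMM17A, TIMM23 and GRPEL1). The 2 kinds of region were not separate measurements. Of the 30 enhancers, 15 overlapped the listed promoter of the same gene and 22 a listed promoter of some gene (73.3%, 95% CI 54.1 to 87.7%), beside 52.9% of all N-Myc typical enhancers. Their median length was 2549 bp, beside 2553 bp over all.

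The 30 enhancers comprised 17 within 10 kb of the start site of the import gene and 13 beyond it. The shortest distances were 3 bp for PHB2, 7 bp for TIMM21, 45 bp for CHCHD4 and 56 bp for TOMM40. The SAMM50 enhancer, 578 bp from the start, was the one near enhancer that overlapped no listed promoter. TOMM5 had a second enhancer 29514 bp upstream with an N-Myc peak of its own. For 10 enhancers the other assigned gene was nearer, as for the pair assigned to MTX2, at 762594 and 941044 bp, with HNRNPA3 nearer. The DNAJC19 enhancer, 76204 bp away with FXR1 at 1267 bp, held no common N-Myc peak. Leaving out enhancers over listed promoters, 7 genes remained with an enhancer, namely TOMM20, TOMM5, DNAJC15, DNAJC19, SAMM50, MTX2 and OXA1L. This was 21.2% of the import genes (95% CI 8.98 to 38.9%), and the same exclusion left 14.5% of all genes, which lies inside that interval.

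A super-enhancer bound by N-Myc was assigned to 1 import gene, TOMM20 (3.03%, 95% CI 0.0767 to 15.8%), beside 1.36% of all genes. Its 2 super-enhancers, of 22115 and 25468 bp, lay 546572 and 422585 bp from TOMM20, and IRF2BP2 was nearer to both, at 408 and 124395 bp. Markers of the sympathoadrenal lineage from which the cell line comes were found in the same list, with 4 super-enhancers assigned to HAND2 and 1 to GATA3, while DBH was in no list.

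**Figure D4:**
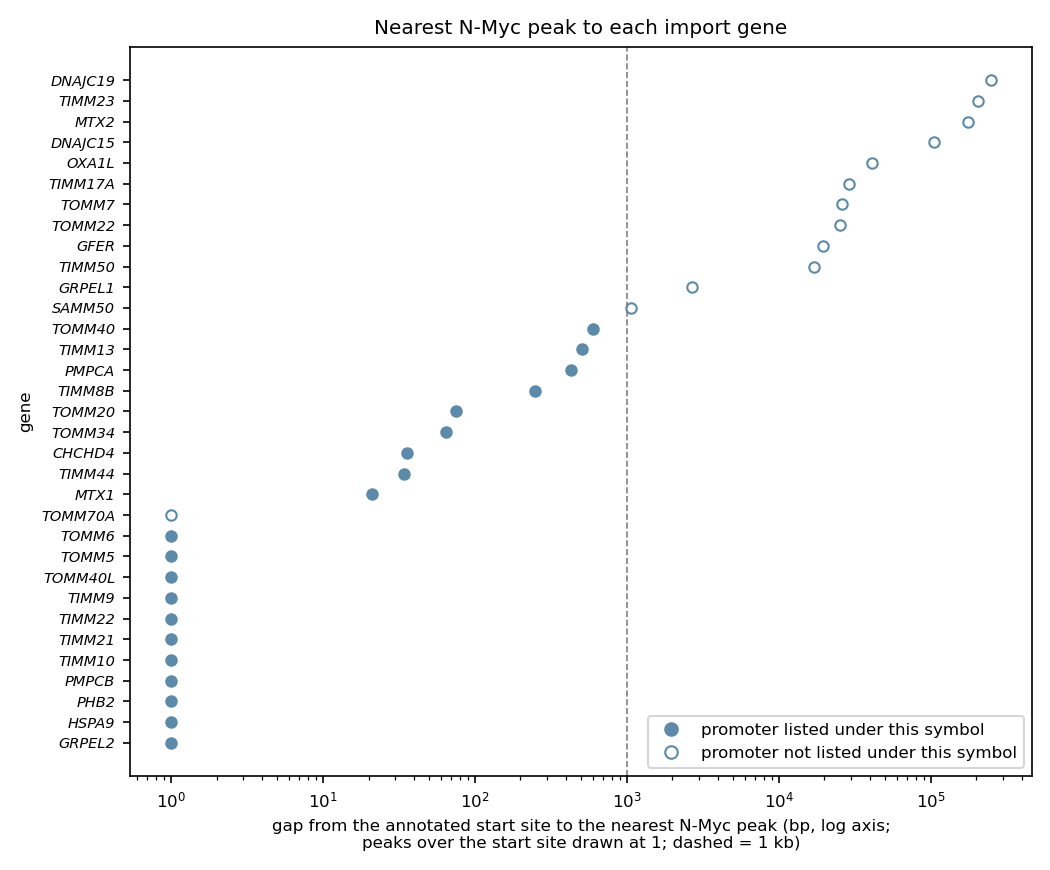
Gap between the annotated start site and the nearest N-Myc peak for all 33 import genes (log axis, bp, 0 drawn at 1), with filled points for genes with a listed promoter under the symbol looked up and open points for the others. Filled points reach 596 bp, and open points other than TOMM70A run from 1065 to 249632 bp.

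Measured from the annotated start of each gene's canonical transcript, the nearest N-Myc peak was at most 596 bp away in the 20 listed genes. Of these start sites, 11 lay under a peak. In the 12 genes without a listed promoter other than TOMM70A the gap ran from 1065 to 249632 bp with a median of 27.7 kb. It exceeded 10 kb in 10 of them and 100 kb in 4, which were TIMM23, DNAJC15, DNAJC19 and MTX2. SAMM50 and GRPEL1 were the 2 genes with a gap under 10 kb. A promoter was listed only when a peak overlapped the region within 1 kb of its start site. The split between listed and other genes near 1 kb therefore follows from that rule.

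JMJD6 was listed at 1 import gene, TIMM21 (3.03%, 95% CI 0.0767 to 15.8%), beside 1.33% of all genes in any JMJD6 list. The share is near that background and rests on a single gene. The whole JMJD6 list held 561 common peaks beside 10172 for N-Myc. At TIMM21 the 375 bp peak over the start site had the same coordinates in the N-Myc list, the JMJD6 list and the list of peaks of both, and the 535 bp peak upstream of it was listed for N-Myc alone. The 2340 bp enhancer over the TIMM21 start was also listed for both proteins. Of all N-Myc promoter peaks, 48 of 3549 (1.35%) were also listed for JMJD6. The part of the shared peak upstream of the TIMM21 start is shown, 117 bases at chr18:71815628-71815744 on the plus strand of GRCh37, because the shared peak is the one import gene promoter peak listed for both proteins. These bases held no CACGTG and no other form, and so have no capitals. The rest of the shared peak, downstream of the start, held no CACGTG and 1 CATGTG, 228.5 bp from the start site.
TIMM21: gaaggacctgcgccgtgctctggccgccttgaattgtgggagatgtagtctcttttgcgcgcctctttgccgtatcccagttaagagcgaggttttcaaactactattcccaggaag

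The nearest JMJD6 peak of the other 32 import genes lay between 23.7 kb (TOMM40) and 34200 kb (OXA1L) from the start site, with a median of 1410 kb, and within 100 kb in TOMM40 alone. Among the other 30 autosomal genes of the pathway, 3 were in a JMJD6 list. PHB and CLPB had promoters listed for JMJD6 as well as N-Myc, and LONP1 had an enhancer listed for both. None of the 78 mitochondrial ribosomal and 36 complex I genes was in a JMJD6 list.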

How the data were processed

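CHP-134 ChIP-seq samples were grouped by the antibody in their labels, 3 for N-Myc and 3 for JMJD6. The authors aligned reads to hg19 with BWA and used SAMtools and BEDTools. Each replicate had its peaks called over input DNA with MACS2 2.1.1.20160309 at default settings and a q-value limit of 0.05, according to the study's methods and the submitters' processing notes. Peaks in all 3 replicates were kept. Promoters spanned 1 kb on each side of RefSeq start sites. Enhancers were defined with ROSE from H3K27ac peaks, which were not used here, stitched within 12.5 kb, and assigned to the 2 nearest genes with GREAT. The 12 deposited lists hold positions in bp, with gene names for regions, and no column per sample, height or count. The depth behind each peak is therefore unknown, and a stricter threshold could only be imitated by width.

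Import genes were matched by the symbols looked up, and the background was every autosomal protein-coding gene of GENCODE 44 lifted to GRCh37, matched also by older symbols. Of 21 promoter regions naming an import gene, 15 were centred within 100 bp of an annotated start of that gene, as were 4138 of 4905 N-Myc promoter regions with an annotated symbol. Distances in the enhancer list are those of the authors. Overlap meant at least 1 bp. Motifs were counted on both strands, and medians have order-statistic intervals. Uniqueness was the share of words of 75 bases that occur once in GRCh37. The 33 genes, the other gene lists and the alternatives were chosen with earlier results of these data known, so no set was tested. All 33 genes were named, with sequences for at most 10 with CACGTG, by distance from peak centre, and for any gene listed for both proteins. The procedures were tested on simulated data. Python 3.11.15, numpy 2.4.6, SciPy 1.17.1, pysam 0.24.0 and matplotlib 3.10.9 were used. Alternatives covered symbol and position matching, the overlap required, peak width, the distance to the start, enhancers over promoters and the motif definition. One of the lineage markers looked up is not reported here.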

Additional observations from a re-analysis of the deposited data

How the results depend on the processing

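Of 21 alternatives over 8 results, 18 left the value within its limits and 3 moved it. Requiring peaks at least as wide as the median common N-Myc peak (418 bp) lowered the genes with a listed promoter from 20 to 11 (33.3%, beside 10.9% of all genes), by removing narrow peaks. Leaving out enhancers over listed promoters lowered the genes with an enhancer from 24 to 7 (21.2%, beside 14.5% of all genes), by the overlap of the lists. Searching only 100 bp to either side of peak centres lowered the genes with CACGTG from 11 to 7 (35%, beside 23% of all promoter peaks), since it covers less sequence. Matching other symbols gave 21 listed promoters, and requiring 50% of a peak inside the promoter gave 19. Alternatives chosen after seeing the data were to keep only genes with a mappable start, which gave 20 listed promoters, and to add the TOMM70A peak, which left 11 genes with CACGTG. No paired analysis was possible because the lists have no column per sample. For the same reason no replicate could be left out. The unknown depth limits every statement about an unlisted gene.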
